A study of Mus musculus with 18 samples.

Results

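Gene expression of JAK2V617F+ cells was compared with that of JAK2V617F- cells from the same marrow cultures, with the difference averaged over 3 treatments. The comparison used 17 of the 18 arrays in the series, 8 of JAK2V617F+ and 9 of JAK2V617F- cells, assigned by the genotype in each array's title. Untreated JAK2V617F+ replicate 3 was left out because the study excluded it for quality. Bone marrow came from Balb/c mice with an established myeloproliferative neoplasm (MPN) induced by retroviral JAK2V617F, with at least 3 mice per experiment, in 3 independent experiments. The marrow was cultured for 16 h with IL-3 (50 ng/mL) and SCF (100 ng/mL), either untreated or with a blocking antibody (BA) against TNFR1 or TNFR2 at 10 μg/mL. Lin-Kit+ cells were then sorted into GFP+ cells, which are the JAK2V617F+ cells, and GFP- cells, which are the JAK2V617F- cells. The JAK2V617F- cells were therefore no cells of healthy mice but neighbours from the same diseased marrow and the same culture. JAK2V617F+ cells were represented by 2 untreated, 3 TNFR1 BA and 3 TNFR2 BA arrays, and JAK2V617F- cells by 3 arrays of each.

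JAK2 is the tyrosine kinase that carries signals from receptors for erythropoietin, thrombopoietin, IL-3, GM-CSF and related cytokines to STAT transcription factors, and JAK2V617F is the activating mutation found in most patients with polycythemia vera and in many with essential thrombocythemia or myelofibrosis. Kit is the receptor for stem cell factor and marks stem cells, early progenitors and mast cells. Lineage depletion removes most mature blood cells, while dendritic cell, mast cell and lymphoid precursors can remain.

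The values are log2 signals per probe set, deposited by the authors, between 2.22 and 15.49, and a difference of 1 on this scale is a 2-fold one. Of all values in the arrays used, 16.1% lay under 3, so that differences against a group close to that floor can be too small. The arrays carry no depth or detection call, and their number limits the precision. The median signals of the 17 arrays lay between 7.41 and 7.75, and that of the excluded array was 6.05. Kit had a lowest, median and highest signal of 3.71, 7.47 and 9.95 in JAK2V617F+ arrays and of 4.19, 7.83 and 9.20 in JAK2V617F- arrays, with a difference of 0.30 (standard error 0.93). The endogenous Jak2 gene had a difference of 0.62 (standard error 0.67, adjusted p = 0.765), and no source used here says whether its probe set detects the retroviral transcript. The granule gene Camp, of maturing neutrophils, had medians of 11.41 in JAK2V617F+ and 13.03 in JAK2V617F- arrays, with the lowest 3 values, 3.59 to 6.13, in the JAK2V617F+ arrays of experiment 2.

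Among 10335 probe sets, 49 (0.474%) were higher and 18 (0.174%) lower in JAK2V617F+ cells at an adjusted p under 0.05 from limma with Benjamini-Hochberg adjustment, together 67 (0.648%). A single gene symbol was listed for 46 of the higher and 17 of the lower probe sets. The called differences ranged from 1.01 to 8.88 with a median of 3.64 among the higher and from -2.90 to -5.44 with a median of -3.86 among the lower. All 49 were positive, and all 18 negative, in each of the 3 experiments. In each of the 3 treatments all 49 were positive and 17 of the 18 negative, the exception being Xiap. Such agreement is largely built in, since the probe sets were selected by the mean over these same arrays, and it is no replication. Some differences of single experiments lay near 0, such as -0.0016 for Ly86 and 0.027 for Zbtb32 in experiment 3. At an unadjusted p under 0.05, 575 probe sets (5.56%) were higher and 609 (5.89%) lower. Because RNA of sorted populations was measured, more cells of a type and more RNA per cell cannot be told apart. The fit counted the 3 cultures of one experiment as separate replicates of the genotype difference. With a block of one culture, which pairs the genotypes sorted from the same culture, the counts were 21 and 5, and with the methods' t-test for paired samples after Benjamini-Hochberg adjustment they were 10 and 1. They also depended on single arrays. Without untreated JAK2V617F+ replicate 1 they were 77 higher and 131 lower, and without untreated JAK2V617F+ replicate 2 they were 28 and 9. They were 28 and 8 without untreated JAK2V617F- replicate 1, and 30 and 11 without TNFR2 BA JAK2V617F- replicate 2. Without TNFR1 BA JAK2V617F- replicate 1, 9 were lower. When a whole experiment was left out, 10, 9 and 19 were higher and 1, 2 and 6 lower without replicates 1, 2 and 3.

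**Figure D1:**
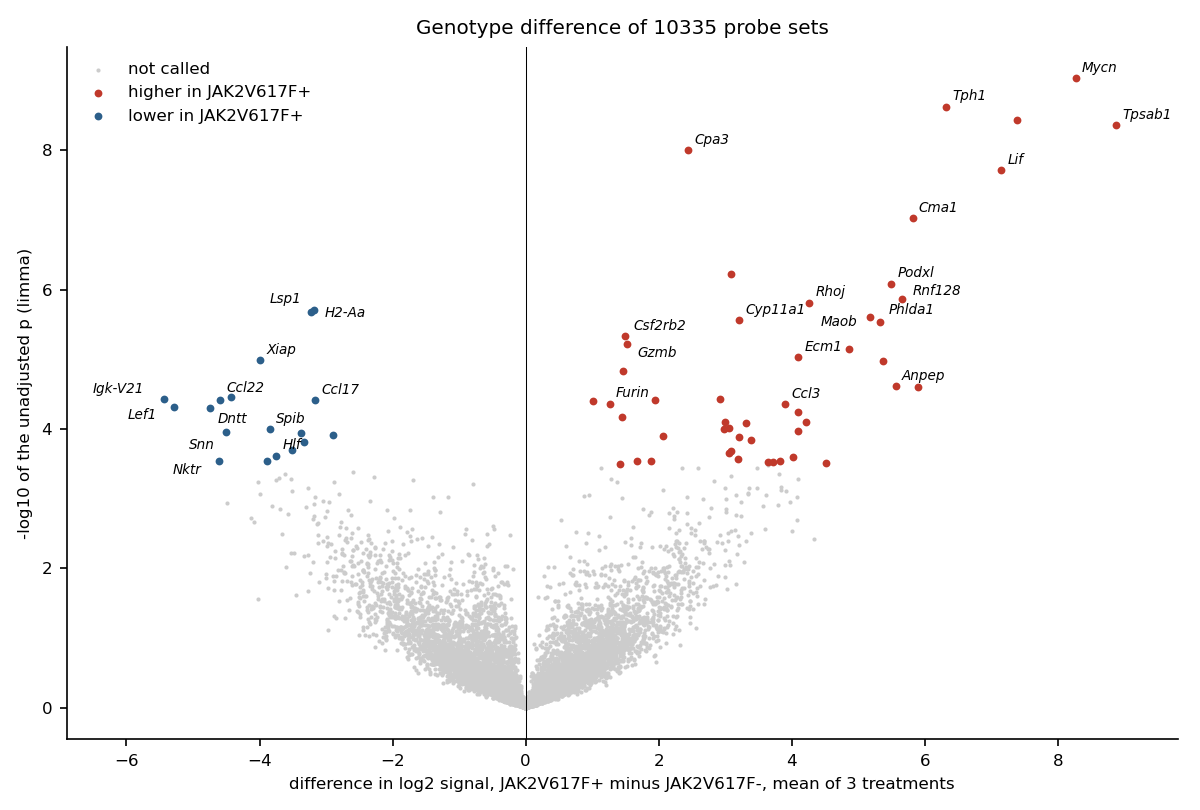
Each point is 1 of 10335 probe sets, with its difference in log2 signal (JAK2V617F+ minus JAK2V617F-, mean of 3 treatments) on the x axis and the -log10 of its unadjusted p from limma on the y axis. Red points are the 49 probe sets called higher and blue points the 18 called lower in JAK2V617F+ cells, and the names mark genes described in the text. The called higher genes reach 8.88, and the called lower genes reach -5.44.

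Of the transcription factor and chromatin genes, Mycn, Tal1, Klf1, Creb3l1, Zbtb32, Hr and Kdm1a were higher in JAK2V617F+ cells. Mycn, a member of the MYC family that drives growth and proliferation, had a lowest, median and highest log2 signal of 8.92, 10.48 and 11.93 in JAK2V617F+ arrays and of 2.22, 2.22 and 2.28 in JAK2V617F- arrays. Every JAK2V617F- array thus stood at the floor of the table, and no JAK2V617F+ array came near it. The difference was 8.27 (standard error 0.64, adjusted p = 9.59e-06), and within treatments it was 8.22 in untreated, 8.45 in TNFR1 BA and 8.12 in TNFR2 BA cultures. Tal1, a factor needed for blood stem cells and for the erythroid and megakaryocytic lineages, spanned 10.32 to 11.67 (median 10.93) in JAK2V617F+ and 7.80 to 10.42 (median 9.22) in JAK2V617F- arrays. The ranges of Tal1 touched only at their ends, and all 8 pairs of arrays from one culture had the higher signal in JAK2V617F+ cells. Its difference was 1.67 (standard error 0.36, adjusted p = 0.0474), and the call remained in 2 of the 17 fits that each left out 1 array, with an adjusted p up to 0.124. Creb3l1, a transcription factor released from the endoplasmic reticulum membrane, had medians of 6.96 in JAK2V617F+ and 2.22 in JAK2V617F- arrays and a difference of 4.22 (standard error 0.80). Its highest JAK2V617F- array reached 4.07, while 2 JAK2V617F+ arrays lay under 3. Zbtb32, a zinc finger repressor known from lymphocytes, differed by 3.72 (standard error 0.80), and Hr, the corepressor hairless, by 3.09 (standard error 0.64). All 9 JAK2V617F- arrays lay under 3 for both genes, as did 2 JAK2V617F+ arrays for Zbtb32 and 1 for Hr. Kdm1a, a histone demethylase that partners with repressors in blood progenitors, differed by 1.42 (standard error 0.31, adjusted p = 0.0494), and its call was lost in every one of the 17 fits without 1 array. Calls were also lost without single arrays for Creb3l1 (called in 12 of the 17 fits), Zbtb32 (4) and Hr (4), with adjusted p up to 0.0721, 0.145 and 0.165.

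Among secreted signals, the IL-6 family cytokine Lif and the chemokine Ccl3 were higher. Lif had a lowest, median and highest signal of 9.0, 9.79 and 11.08 in JAK2V617F+ arrays and of 2.22, 2.34 and 5.64 in JAK2V617F- arrays. Only TNFR2 BA JAK2V617F- replicate 2, with 5.64, stood away from the floor, and the genotypes did not overlap. The difference was 7.15 (standard error 0.69, adjusted p = 3.31e-05). Ccl3, a chemokine for monocytes and other leukocytes, had signals of 8.03, 10.63 and 12.09 in JAK2V617F+ and of 2.96, 5.50 and 10.34 in JAK2V617F- arrays. The highest JAK2V617F- array was of TNFR2 BA culture and lay within the JAK2V617F+ range. Ccl3 differed by 3.90 (standard error 0.70, adjusted p = 0.0134), in all 8 pairs. Its call was lost without untreated JAK2V617F+ replicate 2 or untreated JAK2V617F- replicate 1, with an adjusted p up to 0.0642. Of 15 measured genes of a cytokine and chemokine list of 30, 13 had a positive difference, 2 were called higher (Lif and Ccl3) and 0 lower, and the median difference was 1.49. The list, chosen with earlier results of these data known, did not hold the chemokine genes Ccl22 and Ccl17. Both were called lower, with differences of -4.59 and -3.16, so the counts do not describe all measured chemokines. Over all probe sets 49.8% of differences were positive, 0.474% were called higher and 0.174% lower, and the median was -0.0040. Values that did not pass were 4.0 (adjusted p = 0.169) for the chemokine Ccl6, 3.08 (0.168) for Il6, 2.83 (0.0691) for the macrophage growth factor Csf1 and 2.68 (0.193) for Il1b. Csf1 lay at or below 2.25 in every JAK2V617F- array and had a median of 6.43 in JAK2V617F+ arrays. The mean log2 signal of the 15 genes lay between 6.14 and 7.55 in JAK2V617F+ arrays and between 4.31 and 5.75 in JAK2V617F- arrays.

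**Figure D2:**
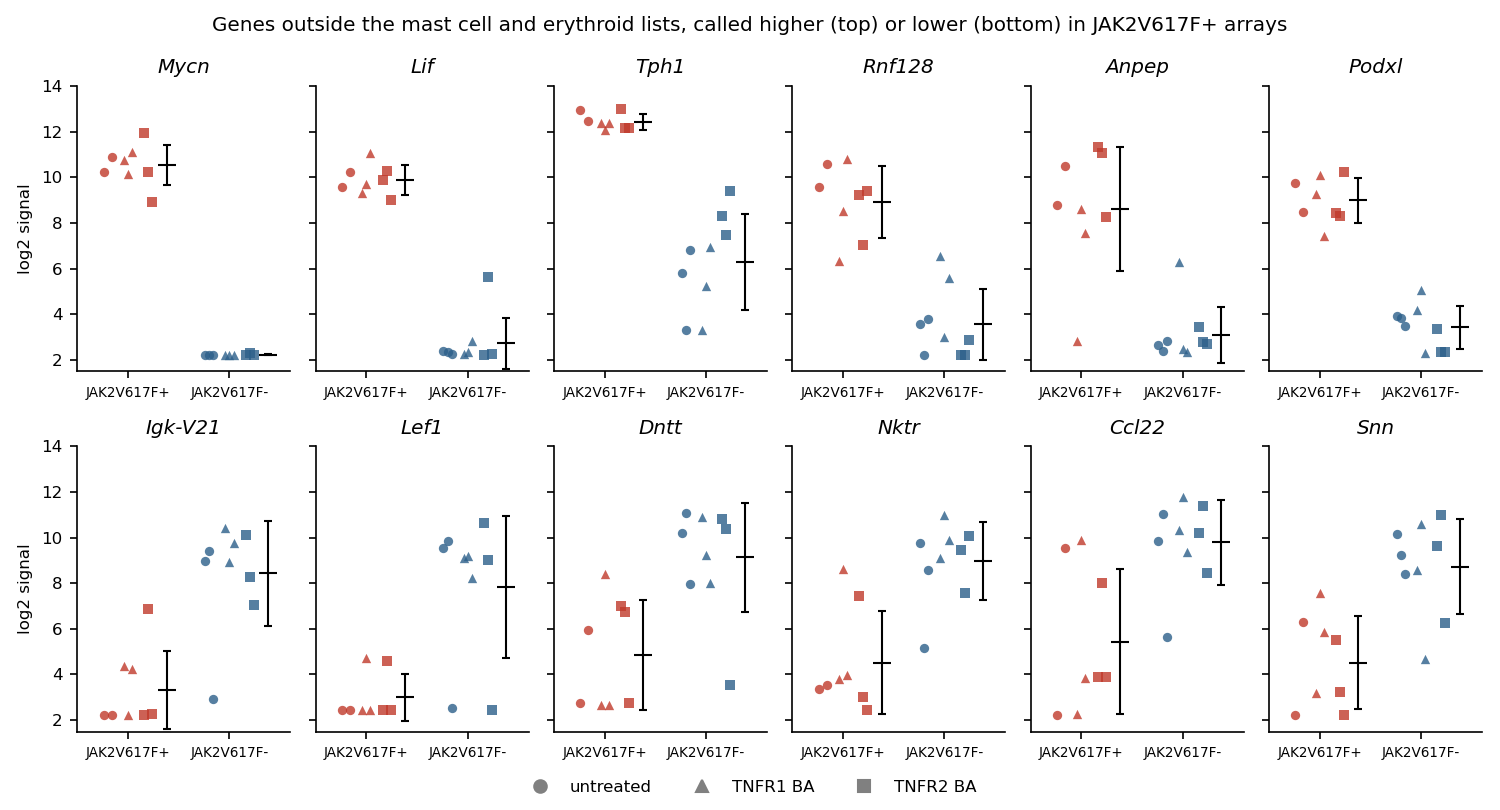
Log2 signal (y axis) of the 6 genes with the largest positive and the 6 with the largest negative called difference outside the mast cell and erythroid lists, with 8 JAK2V617F+ arrays left of 9 JAK2V617F- arrays. Circles, triangles and squares are untreated, TNFR1 BA and TNFR2 BA arrays, and the black marks give the mean and SD over the arrays of a genotype. Mycn, Lif, Tph1 and Podxl separate the genotypes, while the ranges of the genotypes overlap for all 6 lower genes.

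Another group of higher genes makes or breaks down small mediators. Tph1, the rate-limiting enzyme of serotonin synthesis outside the brain and a product of mast cells, had signals of 12.07, 12.38 and 12.99 (lowest, median, highest) in JAK2V617F+ arrays and of 3.31, 6.83 and 9.40 in JAK2V617F- arrays. JAK2V617F+ arrays lay within 1 log2 unit of each other, whereas JAK2V617F- arrays were widely spread and did not reach them. The difference was 6.32 (standard error 0.52, adjusted p = 1.11e-05). Maob, a mitochondrial monoamine oxidase, spanned 6.88 to 9.20 (median 8.52) in JAK2V617F+ and 2.22 to 6.48 (median 2.86) in JAK2V617F- arrays, with a difference of 5.18 (standard error 0.72, adjusted p = 0.00184). Cyp11a1, which cleaves the cholesterol side chain in the first step of steroid hormone synthesis, spanned 11.42 to 12.70 (median 12.05) in JAK2V617F+ and 6.05 to 10.16 (median 9.39) in JAK2V617F- arrays. The ranges of Maob and Cyp11a1 did not overlap, and the difference of Cyp11a1 was 3.21 (standard error 0.45, adjusted p = 0.00187). Alox5, the 5-lipoxygenase that starts leukotriene synthesis, spanned 8.19 to 10.55 (median 9.84) in JAK2V617F+ and 5.67 to 9.19 (median 6.47) in JAK2V617F- arrays. It differed by 3.0 (standard error 0.57, adjusted p = 0.0204), and its call held in 12 of the 17 fits without 1 array, with an adjusted p up to 0.0981. Of 11 measured genes for eicosanoid synthesis and reception, Alox5 was the single call, 7 were positive and the median difference was 0.33. Within treatments the median was -0.42 in untreated, -0.33 in TNFR1 BA and 0.35 in TNFR2 BA cultures. Among all probe sets 49.8% had a positive difference and 0.474% were called higher. The prostaglandin receptor gene Ptger3 had a difference of 3.0 (adjusted p = 0.208) and the leukotriene receptor gene Cysltr1 one of -1.90 (0.357).

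Genes of the cell surface and the cell cortex formed a further group. Podxl, a sialomucin related to CD34, had signals of 7.42, 8.87 and 10.23 in JAK2V617F+ arrays and of 2.29, 3.46 and 5.06 in JAK2V617F- arrays. The lowest JAK2V617F+ array lay above the highest JAK2V617F- array, and the difference was 5.50 (standard error 0.70, adjusted p = 0.000942). Anpep, the aminopeptidase CD13 of myeloid cells, had signals of 2.83, 8.68 and 11.33 in JAK2V617F+ and of 2.33, 2.69 and 6.27 in JAK2V617F- arrays. Both outlying arrays of Anpep came from the TNFR1 BA culture of experiment 1, where JAK2V617F+ cells had 2.83 and JAK2V617F- cells 6.27. Over all arrays Anpep differed by 5.56 (standard error 0.94, adjusted p = 0.0102), and the call was lost without untreated JAK2V617F+ replicate 2 (adjusted p = 0.0505). Rnf128, a membrane-bound E3 ubiquitin ligase, spanned 6.35 to 10.79 (median 9.33) in JAK2V617F+ and 2.22 to 6.54 (median 3.01) in JAK2V617F- arrays, and differed by 5.66 (standard error 0.75, adjusted p = 0.0014). The same TNFR1 BA culture of experiment 1 held the lowest JAK2V617F+ and the highest JAK2V617F- array of Rnf128. Rhoj, a regulator of the actin cytoskeleton, spanned 4.42 to 9.17 (median 6.65) in JAK2V617F+ arrays and was under 3 in all 9 JAK2V617F- arrays, the highest at 2.59. Its difference was 4.26 (standard error 0.57, adjusted p = 0.00144). Atp1b2, a beta subunit of the sodium pump, differed by 4.87 (standard error 0.74), and Slc7a8, a transporter of neutral amino acids, by 2.06 (standard error 0.41). Slc7a8 was called in 7 of the 17 fits without 1 array, with an adjusted p up to 0.149. Abcg4, a cholesterol exporter read by a probe set that may bind several transcripts, differed by 3.64 (standard error 0.79), with 2 JAK2V617F+ arrays under 3, and was called in 4 of the 17 fits.

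Of 21 measured genes of the integrin and adhesion list, 2 were called higher (Podxl and Anpep) and 0 lower, with a median of 0.25. Neither called gene is an integrin. The list was chosen with earlier results of these data known, so its count is no separate result about adhesion genes. The shares called over all probe sets were 0.474% higher and 0.174% lower. The collagen receptor chain Itga1 had a difference of -2.54 (adjusted p = 0.206), with no JAK2V617F+ array above 3.05 and a JAK2V617F- median of 5.61.

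Signalling genes were called as well. Lat, the adaptor that couples immune receptors to phospholipase C gamma, had signals of 7.51, 8.97 and 11.66 in JAK2V617F+ and of 4.29, 6.62 and 8.33 in JAK2V617F- arrays, and differed by 3.39 (standard error 0.68, adjusted p = 0.0289). The ranges of Lat overlapped, all 8 pairs were higher, and the call held in 8 of the 17 fits without 1 array, with an adjusted p up to 0.149. Of 18 measured genes of IgE receptor signal transduction 15 were positive and Lat alone was called, with a median of 0.64. Among all probe sets 49.8% had a positive difference and 0.474% were called higher. Phlda1, a pleckstrin homology-like protein induced by growth factor signals, had signals of 6.48, 10.54 and 11.79 in JAK2V617F+ and of 2.22, 4.05 and 7.80 in JAK2V617F- arrays. Its difference was 5.33 (standard error 0.75, adjusted p = 0.00188), and it was the single call among 14 measured genes of MAP kinase feedback, whose median was 0.04. The phosphatase genes Dusp5 and Dusp10 of that list had differences of -2.10 and -2.06 (adjusted p 0.283 and 0.303). The heterotrimeric G protein genes Gnaz and Gna14 differed by 4.09 (standard error 0.80) and 3.83 (standard error 0.82), and their calls held in 10 and 4 of the 17 fits. Gna14 had 1 JAK2V617F+ array at 2.23 and 1 JAK2V617F- array at 6.77. Other higher genes were Ecm1, an extracellular matrix protein (4.09), Rprm, a cell cycle inhibitor (4.09), Dnajb2, a co-chaperone (4.02), Clvs1 (3.31), Rint1, a vesicle tethering factor (3.19), and Pilrb1, an activating immune receptor (2.98). Among them the call held in all 17 fits for Ecm1, in 15 for Rprm, 13 for Clvs1, 11 for Pilrb1 and 2 for both Dnajb2 and Rint1.

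Smaller differences with little spread were found among highly expressed genes. Csf2rb2, the beta subunit of the mouse IL-3 receptor, had signals of 12.16, 12.63 and 12.80 in JAK2V617F+ and of 10.17, 11.26 and 11.96 in JAK2V617F- arrays. All JAK2V617F+ arrays lay above all JAK2V617F- arrays, with a difference of 1.49 (standard error 0.22, adjusted p = 0.00284) that spanned 0.80 to 2.37 over the 8 pairs. Gzmb, the serine protease granzyme B of cytotoxic lymphocytes and also of mast cells, had signals of 12.89, 13.40 and 13.87 in JAK2V617F+ and of 10.56, 11.76 and 12.72 in JAK2V617F- arrays, again without overlap. Its difference was 1.52 (standard error 0.23, adjusted p = 0.00346). In the T and NK cell list, Gzmb was the single call among 9 measured genes, of which 7 had a negative difference, among them Gzma with -3.10 (adjusted p = 0.297). Among all probe sets 0.474% were called higher and 49.8% had a positive difference. Furin, a protease that activates precursor proteins, spanned 11.80 to 12.84 in JAK2V617F+ and 10.63 to 11.79 in JAK2V617F- arrays and differed by 1.26 (standard error 0.23, adjusted p = 0.0134). Mt2, a metal-binding metallothionein, differed by 1.01 (standard error 0.18, adjusted p = 0.0127), with overlapping ranges of 13.03 to 14.64 in JAK2V617F+ and 11.59 to 14.44 in JAK2V617F- arrays. Its call was lost without untreated JAK2V617F+ replicate 2 (adjusted p = 0.0629).

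Promoter windows of 300 bases, 250 before and 50 after the start site, were taken from RefSeq (GRCm38.p6) and matched to 47 of the 63 called genes with a symbol. The letters TTCNNNGAA, the core to which STAT proteins bind, were searched on both strands. They were in 2 of 33 windows of higher genes (6.06%), in 1 of 14 windows of lower genes (7.14%) and in 8.47% of all 27025 windows. Other motifs were searched too. AGATAAG was in 6.06% of higher, 0% of lower and 3.07% of all windows. CACGTG was in 3.03%, 7.14% and 7.24% and CANNTG in 78.8%, 78.6% and 72.1%, in the same order. The 2 higher genes with TTCNNNGAA were Csf2rb2 and Gzmb, whose windows are shown with the match in capitals because both genes separated the genotypes. The window of Csf2rb2 is chr15:78305672-78305971 on the minus strand, with the match at its base 236, and that of Gzmb is chr14:56262285-56262584 on the minus strand, with the match at base 288.
Csf2rb2: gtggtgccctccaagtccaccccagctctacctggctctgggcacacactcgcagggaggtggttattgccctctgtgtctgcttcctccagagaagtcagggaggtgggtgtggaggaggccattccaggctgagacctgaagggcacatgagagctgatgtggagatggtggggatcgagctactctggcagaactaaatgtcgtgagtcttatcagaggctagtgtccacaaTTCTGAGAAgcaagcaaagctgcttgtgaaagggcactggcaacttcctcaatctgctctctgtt
Gzmb: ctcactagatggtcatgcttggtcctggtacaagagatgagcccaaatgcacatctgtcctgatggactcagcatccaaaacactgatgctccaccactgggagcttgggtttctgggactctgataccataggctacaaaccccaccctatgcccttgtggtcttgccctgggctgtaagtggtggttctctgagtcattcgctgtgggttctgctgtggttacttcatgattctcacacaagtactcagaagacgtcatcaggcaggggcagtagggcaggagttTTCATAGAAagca

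Members of the mast cell and erythroid lists accounted for 11 of the 49 higher probe sets. Of 10 measured mast cell and basophil genes 7 were called higher with a median difference of 3.07. Of 13 measured erythroid genes 4 were called higher with a median of 2.61, beside 0.474% of all probe sets called higher. Hbb-b2, an adult beta globin outside the erythroid list, had ranges of 11.09 to 12.86 in JAK2V617F+ and 10.03 to 10.97 in JAK2V617F- arrays that did not overlap, and a difference of 1.47 (standard error 0.24, adjusted p = 0.00664). Of 12 measured megakaryocyte and platelet genes 11 were positive, beside 49.8% of all probe sets, and 1 was called, with a median of 0.87. That gene, the platelet chemokine Pf4, had signals of 10.55, 12.18 and 14.05 in JAK2V617F+ and of 8.24, 10.81 and 11.54 in JAK2V617F- arrays, and differed by 1.94 (standard error 0.34, adjusted p = 0.0127). All 8 pairs were higher, and the call was lost without untreated JAK2V617F+ replicate 2 (adjusted p = 0.0642). The von Willebrand factor gene Vwf had a difference of 2.92 (adjusted p = 0.177), with all JAK2V617F- arrays at 2.22 and a JAK2V617F+ median of 4.86. Erythroid genes had median differences of 3.27, 2.51 and 0.76 in experiments 1, 2 and 3, and megakaryocyte genes had 0.40, 1.0 and 1.94. The difference between experiments was not tested.

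**Figure D3:**
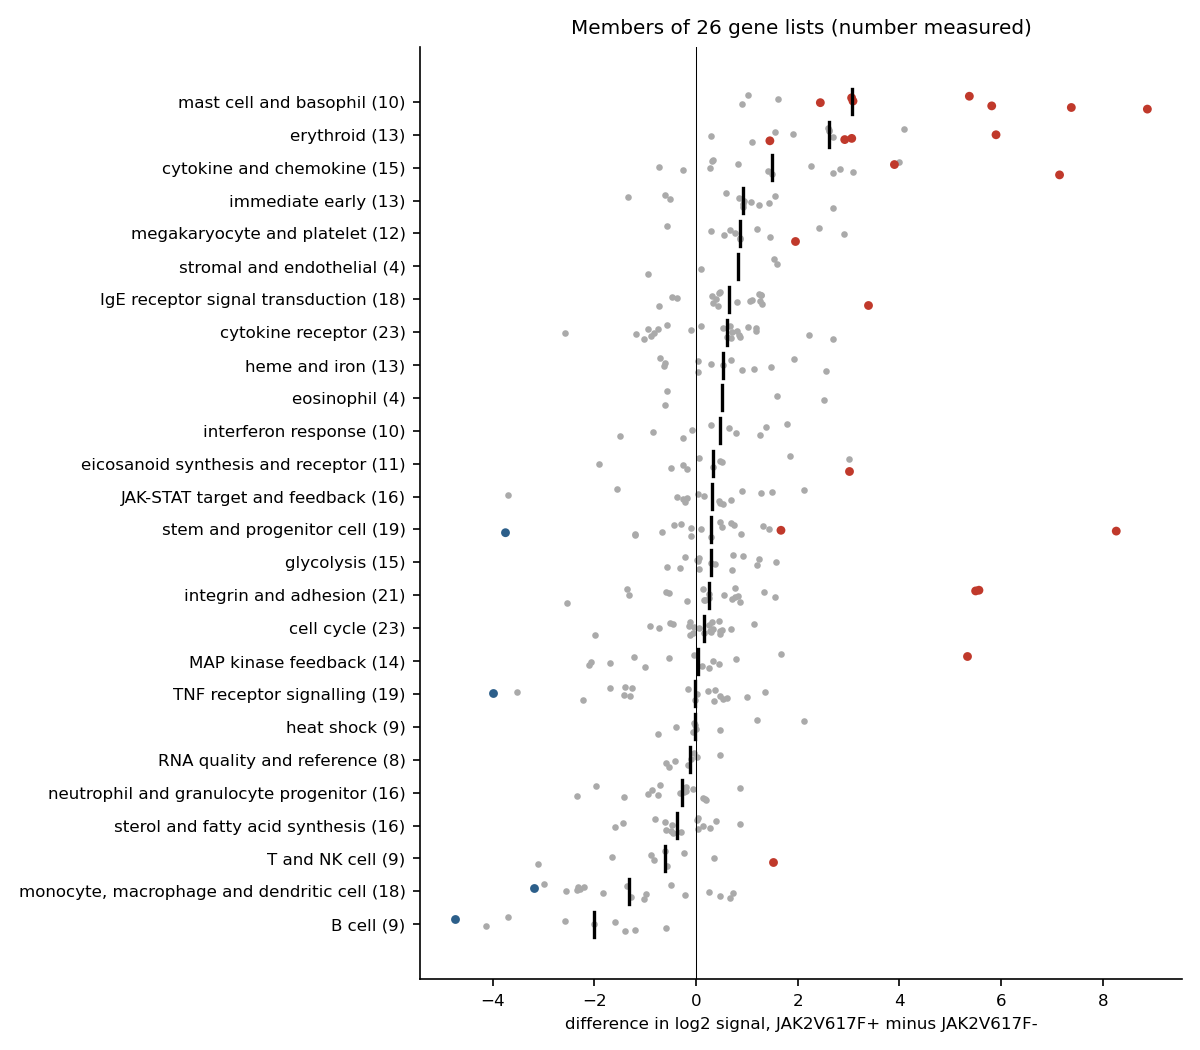
Each point is a measured gene of 1 of 26 lists (rows, with the number measured), placed by its difference in log2 signal (x axis, JAK2V617F+ minus JAK2V617F-). Red points were called higher, blue points lower, grey points were not called, and the black bar is the median of the list. The medians run from 3.07 for mast cell and basophil genes to -2.01 for B cell genes.

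In the other direction, H2-Aa and H2-Ea, genes of antigen presentation, and the chemokine genes Ccl22 and Ccl17 were lower in JAK2V617F+ cells. H2-Aa, the alpha chain of the MHC class II molecule I-A, had signals of 7.01, 8.42 and 10.62 (lowest, median, highest) in JAK2V617F+ arrays and of 10.25, 12.28 and 12.46 in JAK2V617F- arrays. The ranges overlapped only through the JAK2V617F- arrays of experiment 3, at 10.25 to 10.48, and in all 8 pairs the JAK2V617F+ array was lower. The difference was -3.18 (standard error 0.43, adjusted p = 0.00164). H2-Ea, the alpha chain of I-E, had medians of 9.38 in JAK2V617F+ and 12.26 in JAK2V617F- arrays and a difference of -2.90 (standard error 0.57, adjusted p = 0.0266). H2-Ea was lower in all 8 pairs, though 3 JAK2V617F+ arrays of experiment 2 lay above 11, and its call held in 10 of the 17 fits without 1 array, with an adjusted p up to 0.0979. The probe sets of both genes may bind several transcripts. The beta chain gene H2-Eb1 had a difference of -2.33 (adjusted p = 0.193), with medians of 7.98 in JAK2V617F+ and 10.53 in JAK2V617F- arrays.

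The letters CTGATTGG, the core of the Y box of MHC class II promoters, were searched after the data had been seen, on both strands of the same promoter windows. They were in 2 of 14 windows of lower genes (14.3%), in 2 of 33 windows of higher genes (6.06%) and in 4.31% of all windows. The lower genes were H2-Aa and Snn, and the higher genes were Zbtb32 and Klf1. H2-Eb1, which was not called and is not among the 14, also held them. The windows of H2-Aa and H2-Eb1 are shown with this match in capitals because they share it and their signals were both lower on average in JAK2V617F+ cells. They are chr17:34287774-34288073 on the minus strand for H2-Aa, with the match at base 200, and chr17:34305617-34305916 on the plus strand for H2-Eb1, with the match at base 189.
H2-Aa: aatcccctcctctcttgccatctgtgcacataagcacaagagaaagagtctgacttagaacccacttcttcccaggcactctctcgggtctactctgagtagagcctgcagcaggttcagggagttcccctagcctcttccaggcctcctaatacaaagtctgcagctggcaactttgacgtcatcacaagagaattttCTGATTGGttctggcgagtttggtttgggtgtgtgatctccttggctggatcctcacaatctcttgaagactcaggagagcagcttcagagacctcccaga
H2-Eb1: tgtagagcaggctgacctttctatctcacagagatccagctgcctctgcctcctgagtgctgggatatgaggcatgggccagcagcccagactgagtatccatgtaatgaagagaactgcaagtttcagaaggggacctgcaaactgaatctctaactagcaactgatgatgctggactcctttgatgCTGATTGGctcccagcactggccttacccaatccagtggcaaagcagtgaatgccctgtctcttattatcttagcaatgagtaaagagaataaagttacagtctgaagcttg

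Ccl22 and Ccl17, ligands of the receptor CCR4 that mature dendritic cells release, were both lower. Ccl22 had signals of 2.22, 3.88 and 9.90 in JAK2V617F+ and of 5.64, 10.20 and 11.78 in JAK2V617F- arrays, and differed by -4.59 (standard error 0.81, adjusted p = 0.0127). Its 3 JAK2V617F+ arrays of experiment 2 had 8.02 to 9.90, while those of the other experiments had 3.89 or less. Ccl17 had signals of 5.50, 6.66 and 9.61 in JAK2V617F+ and of 6.80, 10.88 and 11.38 in JAK2V617F- arrays, and differed by -3.16 (standard error 0.56, adjusted p = 0.0127). The 2 chemokines were lower in all 8 pairs, and their calls held in all 17 fits without 1 array and were lost without the replicate block. Most lower genes lost their call in that way, since 6 of the 18 lower probe sets stayed called without the block. Ly86, the partner of the receptor RP105 on B cells and dendritic cells, lay under 3 in 6 JAK2V617F+ and in 2 JAK2V617F- arrays, both of experiment 3, and differed by -3.88 (standard error 0.84, adjusted p = 0.0474). It was called in 3 of the 17 fits. Of 18 measured monocyte, macrophage and dendritic cell genes, 14 were negative, 1 was called lower (H2-Aa) and 0 higher, and the median was -1.32. Among all probe sets 0.174% were called lower, 0.474% higher, and 49.8% had a positive difference. At an unadjusted p under 0.05 from limma, 9 of the 18 were lower and 0 higher, beside 5.89% and 5.56% of all probe sets. Genes of that list that did not pass were Siglech, a marker of plasmacytoid dendritic cells, with -2.99 (adjusted p = 0.198), the transcription factor Irf8 with -2.55 (0.198) and the cytokine receptor Flt3 with -2.35 (0.291). The mean log2 signal of the 18 genes lay between 5.74 and 8.11 in JAK2V617F+ and between 6.83 and 8.99 in JAK2V617F- arrays.

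Some called lower genes are known from lymphoid cells. Igk-V21, an immunoglobulin kappa variable segment, had signals of 2.22, 2.23 and 6.87 in JAK2V617F+ and of 2.92, 8.96 and 10.42 in JAK2V617F- arrays. Apart from TNFR2 BA replicate 2 with 6.87, JAK2V617F+ arrays stayed at 4.37 or less, and apart from untreated replicate 3 with 2.92, JAK2V617F- arrays had 7.05 or more. The difference was -5.44 (standard error 0.96, adjusted p = 0.0127), and the call was lost without untreated JAK2V617F+ replicate 2 (adjusted p = 0.0505). Lef1, a transcription factor of the Wnt pathway in lymphoid precursors, had signals of 2.45, 2.45 and 4.71 in JAK2V617F+ and of 2.45, 9.10 and 10.62 in JAK2V617F- arrays, and differed by -5.29 (standard error 0.95, adjusted p = 0.0141). The 2 low JAK2V617F- arrays of Lef1, with 2.53 and 2.45, were of experiment 3. Its call was lost without untreated JAK2V617F+ replicate 2 or untreated JAK2V617F- replicate 1, with an adjusted p up to 0.0629. Dntt, the terminal transferase that adds nucleotides at antigen receptor joints, had signals of 2.65, 4.34 and 8.40 in JAK2V617F+ and of 3.56, 10.20 and 11.06 in JAK2V617F- arrays, and differed by -4.75 (standard error 0.86, adjusted p = 0.0144). All 8 pairs were lower for Dntt, and its call was lost without the replicate block. Spib, an Ets factor of B cells and plasmacytoid dendritic cells, differed by -3.85 (standard error 0.74, adjusted p = 0.0238), lower in 7 of 8 pairs and called in 7 of the 17 fits.

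Of 9 measured B cell genes 9 were negative, with a median of -2.01, and Dntt alone was called. Among all probe sets 0.174% were called lower, 49.8% had a positive difference and the median was -0.0040. The surrogate light chain genes Vpreb1 and Vpreb3 had differences of -4.13 (adjusted p = 0.132) and -2.01 (0.213), the coactivator Pou2af1 -3.70 (0.115) and the IL-7 receptor gene Il7r -2.58 (0.257). The median difference of the B cell list was -3.80, -1.76 and 0 in experiments 1, 2 and 3. The mean log2 signal of the list lay between 2.97 and 4.76 in JAK2V617F+ arrays. In JAK2V617F- arrays it was 6.25 to 7.91 in experiments 1 and 2, whereas in experiment 3 it was 3.57, 4.62 and 2.47 for untreated, TNFR1 BA and TNFR2 BA cultures. The difference between experiments was not tested for this list either.

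**Figure D4:**
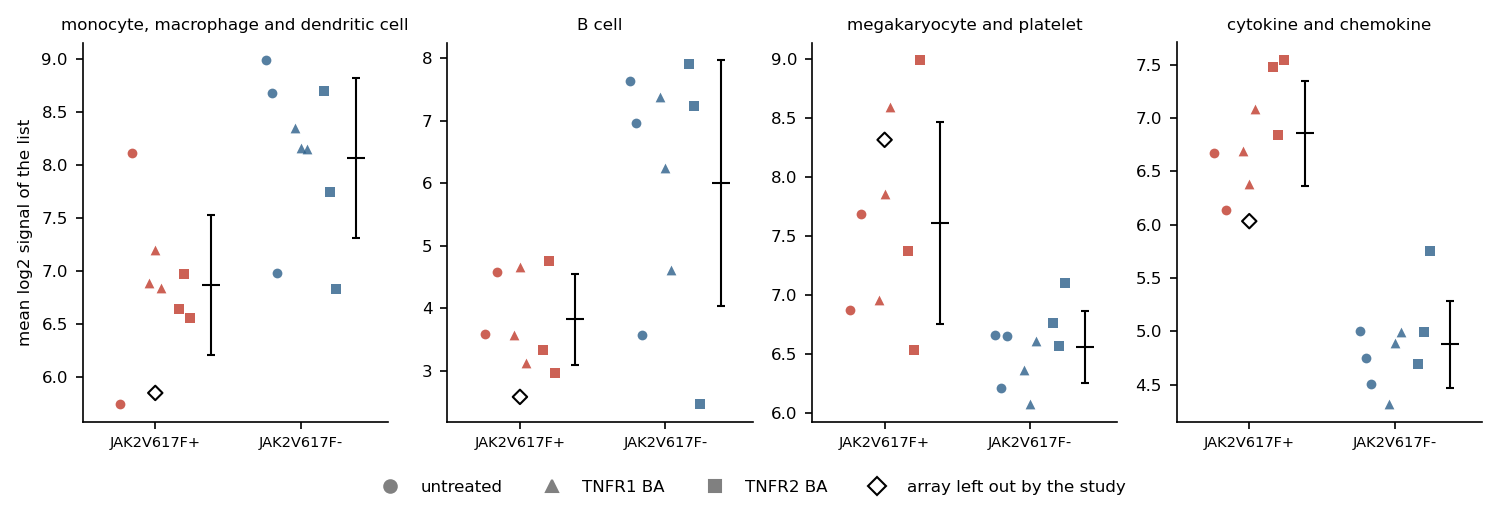
Mean log2 signal (y axis) of the measured genes of 4 lists in each array, with JAK2V617F+ arrays left of JAK2V617F- arrays, symbols by treatment, and the mean and SD of the 8 and 9 arrays in black. The open diamond is the excluded array. The mean of the cytokine and chemokine list separates the genotypes, with JAK2V617F+ arrays at 6.14 to 7.55 and JAK2V617F- arrays at 4.31 to 5.75. This list includes the called higher genes Lif and Ccl3 but not the called lower genes Ccl22 and Ccl17. Whether its mean separates the genotypes without Lif and Ccl3 was not tested. The other lists drawn here overlap. The mast cell list (10.57 to 12.17 against 6.44 to 8.46) and the erythroid list (8.18 to 10.53 against 5.63 to 7.68), not drawn, separate the genotypes as well.

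Further genes were lower outside these lists. Lsp1, an actin-binding protein of leukocytes, had signals of 6.10, 8.08 and 9.23 in JAK2V617F+ and of 9.73, 11.25 and 11.84 in JAK2V617F- arrays. It was the only called lower gene whose genotypes did not overlap, and it differed by -3.23 (standard error 0.44, adjusted p = 0.00164). Hlf, a transcription factor of blood stem cells, had signals of 2.74, 3.93 and 8.20 in JAK2V617F+ and of 4.29, 7.67 and 10.39 in JAK2V617F- arrays, and differed by -3.75 (standard error 0.79, adjusted p = 0.0446). Hlf was lower in all 8 pairs, with 1 JAK2V617F+ array, TNFR1 BA replicate 2, well above the rest, and its call held in 5 of the 17 fits, with an adjusted p up to 0.13. Tbc1d4, a Rab GTPase-activating protein of glucose transporter traffic, had medians of 4.06 in JAK2V617F+ and 9.82 in JAK2V617F- arrays and a difference of -4.44 (standard error 0.78, adjusted p = 0.0127). The call of Tbc1d4 was lost without untreated JAK2V617F+ replicate 2 (adjusted p = 0.061). Nktr, a cyclophilin-domain protein first found on natural killer cells, differed by -4.61 (standard error 0.99), and Snn, the small membrane protein stannin, by -4.50 (standard error 0.88). Their calls held in 3 and 10 of the 17 fits. Serpinf1, a secreted serpin also known as PEDF, differed by -3.33 (standard error 0.67), and Ramp3, an accessory protein of calcitonin-family receptors, by -3.38 (standard error 0.66), with calls in 5 and 8 of the 17 fits. The progesterone receptor gene Pgr was under 3 in every JAK2V617F+ array and at 3.18 to 7.83 in JAK2V617F- arrays. It did not pass, with a difference of -3.05 (standard error 0.76, adjusted p = 0.0981).

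Of 19 measured stem and progenitor genes, 2 were called higher (Mycn and Tal1) and 1 lower (Hlf), 11 were positive and the median was 0.30. Of all probe sets 0.474% were called higher, 0.174% were called lower and 49.8% had a positive difference. Among 16 neutrophil and granulocyte progenitor genes 12 were negative, 0 were called in either direction and the median was -0.28, with -2.34 for Camp (adjusted p = 0.0981). At an unadjusted p under 0.05 from limma, 7 of the 16 were lower and 0 higher, beside 5.89% and 5.56% of all probe sets. None of the measured genes passed in the lists of JAK-STAT targets and feedback (0 of 16, median 0.31), cytokine receptors (0 of 23, 0.61), interferon response (0 of 10, 0.47), glycolysis (0 of 15, 0.30), sterol and fatty acid synthesis (0 of 16, -0.37), heme and iron (0 of 13, 0.54), immediate early genes (0 of 13, 0.92), heat shock (0 of 9, -0.03) and cell cycle (0 of 23, 0.16). At an unadjusted p under 0.05 limma gave 2 higher and 2 lower genes in the JAK-STAT list, and 2 and 2 in the cell cycle list. In the JAK-STAT list the G1 cyclin gene Ccnd1 had a difference of -3.71 (adjusted p = 0.0665), and in the cell cycle list the topoisomerase gene Top2a had one of -1.98 (0.131). These lists do not show that the pathways were alike in the genotypes, since the median residual SD was 1.38.

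**Figure D5:**
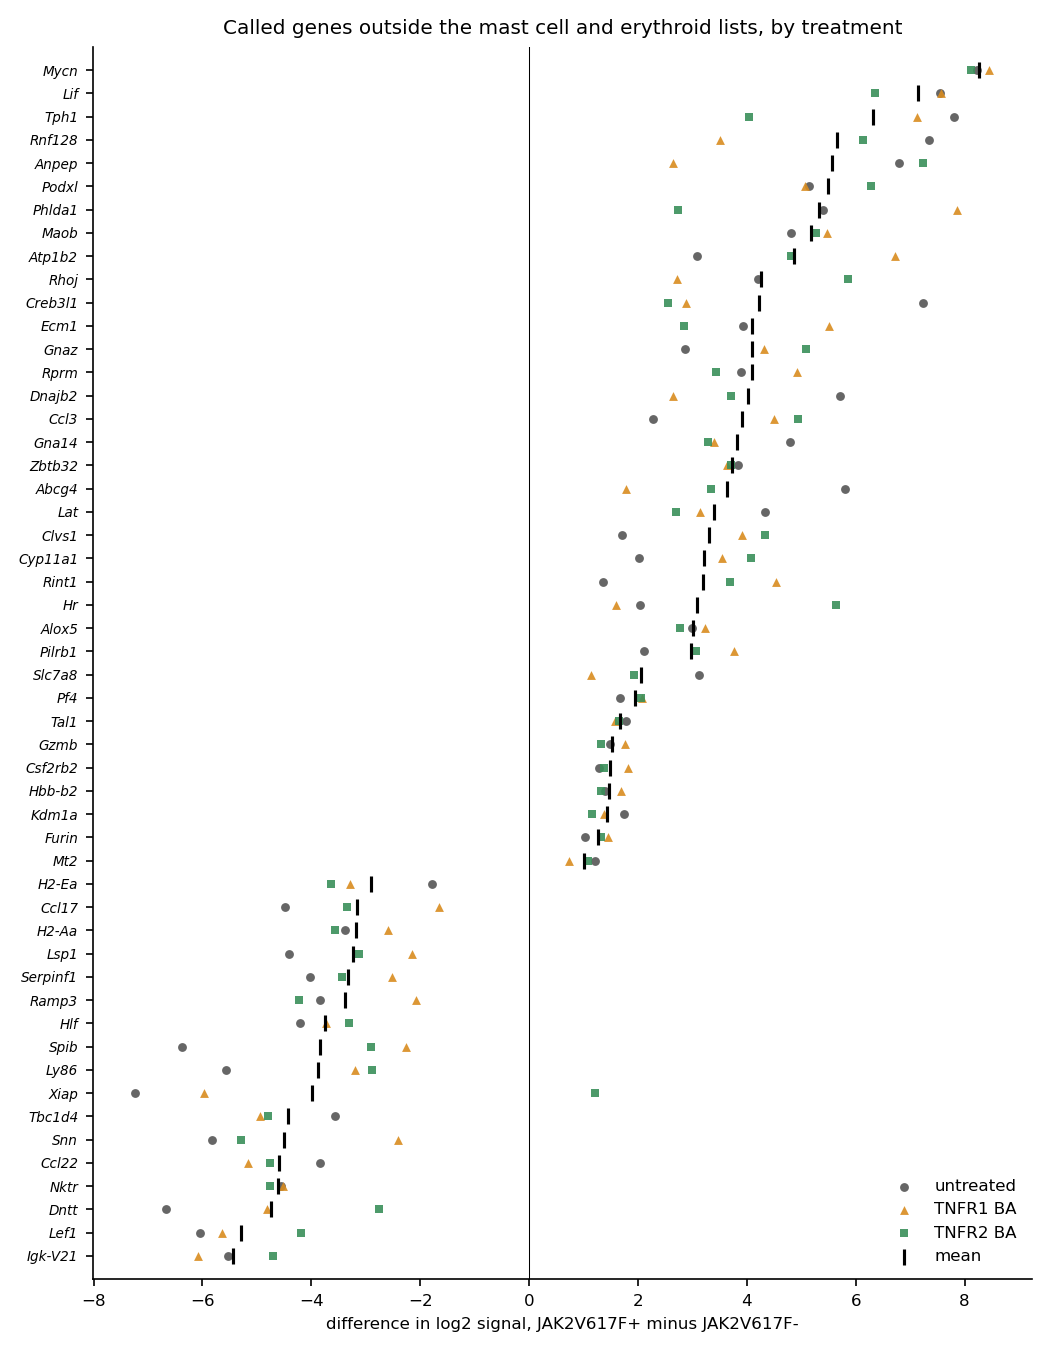
Difference in log2 signal (x axis, JAK2V617F+ minus JAK2V617F-) of 52 called genes outside the mast cell and erythroid lists (rows) in untreated (circles), TNFR1 BA (triangles) and TNFR2 BA (squares) cultures, with the mean of the 3 as a black bar. Every symbol lies on the side of its mean except the TNFR2 BA value of Xiap, 1.21.

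Within single treatments, limma called 7 probe sets higher (0.0677%) and 2 lower (0.0194%) in untreated cultures, 11 higher (0.106%) and 2 lower (0.0194%) with TNFR1 BA, and 6 higher (0.0581%) and 0 lower with TNFR2 BA. These counts moved with single arrays. When 1 array was left out, the untreated count of 9 lay between 1 (without untreated JAK2V617F- replicate 1 or 3) and 191 (without untreated JAK2V617F+ replicate 1). The TNFR1 BA count of 13 lay between 1 (without TNFR1 BA JAK2V617F+ replicate 3) and 13, and the TNFR2 BA count of 6 between 0 (without TNFR2 BA JAK2V617F+ replicate 1) and 9 (without TNFR1 BA JAK2V617F- replicate 1). The interaction of genotype and treatment passed for 0 of 10335 probe sets in limma, with 510 (4.93%) at an unadjusted p under 0.05, so no gene was shown to differ between treatments in its genotype difference. This count was 4 without untreated JAK2V617F+ replicate 1 and 1 without TNFR2 BA JAK2V617F- replicate 1. The 5 smallest interaction p belonged to Psmb7, a proteasome subunit, Cry2, a clock repressor, Xiap, Cox6b2, a cytochrome oxidase subunit, and Pbdc1. Psmb7 had differences of -1.66, 1.39 and 0.08 in untreated, TNFR1 BA and TNFR2 BA cultures (adjusted p = 0.0877 for the interaction in limma). Xiap, an inhibitor of apoptosis, was the called gene with the smallest interaction p. Its JAK2V617F+ signals were 2.53 and 2.31 in untreated, 2.22, 5.69 and 5.64 in TNFR1 BA and 9.83, 10.53 and 12.01 in TNFR2 BA arrays, and its JAK2V617F- signals were 7.99 to 11.69 over all treatments. All JAK2V617F+ arrays of untreated and TNFR1 BA cultures lay below the JAK2V617F- range, and those of TNFR2 BA cultures lay within or above it. The mean difference of -4.0 (standard error 0.63, adjusted p = 0.00497) therefore combined -7.23, -5.97 and 1.21, with an adjusted p of 0.287 for the interaction in limma.

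Without overlap of the 8 JAK2V617F+ and 9 JAK2V617F- arrays, 23 probe sets were higher (0.223%) and 2 lower (0.0194%) in JAK2V617F+ cells, and 20 and 1 of them were called. In 8 of 8 pairs 118 probe sets were higher (1.14%) and 150 lower (1.45%), of which 39 and 15 were called. In all 17 fits without 1 array, 21 of the higher and 6 of the lower probe sets were called, the lower ones being Lsp1, H2-Aa, Ccl17, Ccl22, Dntt and Xiap. In all 3 fits without 1 experiment, 7 higher genes were called (Mycn, Lif, Tph1, Tpsab1, Tpsb2, Cma1 and Cpa3, the last 4 being mast cell proteases) and 0 lower genes.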

How the data were processed

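RNA of sorted Lin-Kit+ cells was amplified as cDNA (Ovation Pico WTA System), labeled and hybridized to Affymetrix mouse expression arrays. From these arrays the authors deposited log2 values, for which the methods name Affymetrix Expression Console. No source used here states the normalization or the choice of the 10335 probe sets, and the values were used as deposited. No pair of arrays correlated by more than 0.832. A gene symbol from the platform annotation was single for 9651 probe sets, several for 27 and absent for 657. Of the single symbols 9625 were matched by Entrez ID in a GRCm38.p6 table and 0 changed. The probe set of highest mean stood for a gene.

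Limma 3.58.1 in R 4.3.3 was fitted to 6 group means with the replicate number as a block (17 arrays, 9 residual degrees of freedom), with an intensity trend in the moderated variances and Benjamini-Hochberg adjustment over all probe sets at 0.05. The fit had no term for a genotype difference that varies between experiments, and the paired test likewise counted 8 pairs. Where the difference varied between the 3 experiments, standard errors and p can therefore be too small. The replicate number was read as the experiment, since the methods describe 3 independent experiments and pair the genotypes of murine samples. Deviations from the group means correlated by 0.008, 0.071 and 0.144 on average within replicates 1, 2 and 3 and by -0.033 between numbers, and 14 of 17 arrays were closest to their own number. The 8 pairs are arrays of one experiment and treatment, and untreated JAK2V617F- replicate 3 had no partner. Differences for single experiments are means of their pairs.

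The 26 lists held 519 genes, of which 358 were measured, and are described by counts and medians with no set test. Genes were named from up to 20 called in each direction by difference, up to 10 by the gap between genotypes, up to 5 by the smallest range over pairs, the 5 smallest interaction p, and the called and up to 4 further genes of each list. Members, lists and alternatives were chosen with earlier results of these data known. Alternatives were no replicate block, a block of one culture, all 18 arrays, quantile normalization, removal of dim probe sets (keeping log2 signal over 6 in at least 8 arrays), variances without a trend, robust variances, array weights, the methods' t-test and leaving out arrays, replicates or treatments. The fit was tested on simulated data.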

Additional observations from a re-analysis of the deposited data

Results flagged for a closer look

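Dixon's test was applied to 134 groups of arrays, 1 per genotype for each called probe set. It marked 26 arrays as far from the rest of their genotype. For normally distributed values chance gives such an array in about 1 in 20 groups. That rate need not hold for groups lying at the floor of the table, so the count of 26 cannot be judged by it. All values are log2 signals. In JAK2V617F+ arrays these were Anpep at 2.83 (TNFR1 BA replicate 1), Rprm at 2.53 (TNFR2 BA replicate 2), Gna14 at 2.23 (TNFR1 BA replicate 2), Rint1 at 9.42 (TNFR1 BA replicate 1), Slc7a8 at 12.88 (untreated replicate 2) and Csf2rb2 at 12.16 (untreated replicate 1). The others were Ramp3 at 4.1 and Hlf at 8.2 (both TNFR1 BA replicate 2) and Igk-V21 at 6.87 (TNFR2 BA replicate 2). In JAK2V617F- arrays, TNFR2 BA replicate 2 held Mycn at 2.28, Lif at 5.64, Pf4 at 8.24 and Furin at 11.79, and TNFR2 BA replicate 3 held Cd200r3 at 7.44, Rhoj at 2.59, Creb3l1 at 4.07 and Dntt at 3.56. Untreated JAK2V617F- replicate 3 held Pklr at 8.49, Maob at 6.48 and Igk-V21 at 2.92, and untreated replicate 2 Rprm at 4.21, Zbtb32 at 2.99 and Hr at 2.35. TNFR1 BA JAK2V617F- replicate 1 held Cma1 at 2.98 and Anpep at 6.27, and TNFR2 BA replicate 1 Gna14 at 6.77. For Mycn, Rhoj, Zbtb32 and Hr the distant array was itself under 3.

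The genotype difference of Xiap, as the mean of its pairs, was -7.16 in untreated, -5.97 in TNFR1 BA and 1.21 in TNFR2 BA cultures, with each pair on the side of its mean, while the interaction had an adjusted p of 0.287 from limma.

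In the excluded array, untreated JAK2V617F+ replicate 3, 29 of the 49 higher probe sets lay above every JAK2V617F- array, as did 17.9% of all probe sets. Lif at 2.97 and Podxl at 3.85 were not among the 29 and lay within the JAK2V617F- range, while Mycn at 9.26 and Tph1 at 11.91 were among them. Of the 18 lower probe sets 13 lay below every JAK2V617F- array, as did 25.5% of all.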

How the results depend on the processing

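The counts of 49 higher and 18 lower probe sets were 31 and 6 with no replicate block (30 and 6 of them shared), 21 and 5 with a block of one culture, and 10 and 1 with the methods' t-test for paired samples after Benjamini-Hochberg adjustment (550 and 420 at an unadjusted p under 0.05). They were 18 and 3 without untreated arrays, 11 and 2 without TNFR1 BA arrays and 8 and 1 without TNFR2 BA arrays, and between 9 and 77 and between 1 and 131 when arrays or replicates were left out. All 18 arrays, quantile normalization, the dim filter, variances without a trend, robust variances and array weights kept them within 1.5 times, at 37 to 48 and 13 to 19. The untreated count of 9 was 0 with a block of one culture, 1 with array weights, 3 without TNFR1 BA arrays, 0 without TNFR2 BA arrays and 0 to 191 without arrays or replicates. The TNFR1 BA count of 13 was 3 with a block of one culture, 7 with all 18 arrays, 4 without untreated arrays, 0 without TNFR2 BA arrays and 0 to 13 without arrays or replicates. The TNFR2 BA count of 6 was 0 with a block of one culture, 3 with all 18 arrays, 0 without untreated or TNFR1 BA arrays and 0 to 9 without arrays or replicates. The interaction count of 0 was 1 with the dim filter and 0 to 4 without arrays. The median of the cytokine receptor list ran between -0.047 (without replicate 3) and 0.86 (without replicate 1). Psmb7 (-0.06) turned to 0.012 with no replicate block, 0.18 with the paired test and 0.74 without untreated arrays, and ran between -0.14 and 0.016 without arrays or replicates. Pbdc1 (-0.07) turned to 0.15 without untreated and 0.47 without TNFR2 BA arrays, and ran between -0.20 and 0.14 without arrays or replicates. Cry2 turned to 0.96 without untreated arrays and Cox6b2 to -0.83 without TNFR1 BA arrays. The cause was not tested. Over all called genes and alternatives, 1294 values stayed past the threshold with the same sign, 838 kept the sign but passed no longer, and 0 changed sign. Without replicate 1 or 2, the lone untreated JAK2V617F+ array is assumed to vary like the other groups. Signals under 3 limit how large a difference from a dim group can be.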
